A study of Mus musculus with 8 samples.

Results

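Tuft cells are rare chemosensory cells of the intestinal epithelium, and 9 genes that mark them were followed across 8 RNA-seq libraries of mouse small-intestinal crypts. The 9 genes were taken by symbol from a table of 55880 genes. They are the transcription factor genes Pou2f3 and Gfi1b, the signalling genes Trpm5 and Rgs13, the leukotriene synthesis genes Alox5ap and Ltc4s, and Dclk1, Avil and Sh2d6. All 9 were detected in every library, and all 9 were among the 14897 genes with enough counts to be tested. Of the 8 libraries, 4 came from wild-type C57BL/6N mice and 4 from C57BL/6N mice labelled miR-29ab1-/-, a name for loss of the gene cluster of miR-29a and miR-29b-1. The series title places the samples before irradiation. The sources used here do not give the age or sex of the mice or how the allele was made. It is also not stated whether each library came from its own animal. The p-values thus set a group difference only against the spread between these libraries, which may be technical.

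Pou2f3 is the factor that tuft cells need in order to form. Mature tuft cells sense luminal metabolites and parasites through taste-type receptors and G proteins, which raise calcium and open the cation channel Trpm5. They answer by releasing the cytokine interleukin 25, acetylcholine and lipid mediators such as leukotrienes and prostaglandins, which act on immune cells, nerves and the neighbouring epithelium. Tuft cells make up a small part of the epithelium, so their transcripts are a small part of the RNA of whole crypts.

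The libraries held between 13879472 and 17368666 counts. The 10 crypt epithelium genes that were checked, Epcam, Lgr5 and Lyz1 among them, were all tested and summed to between 23453 and 48559 CPM. CPM are counts scaled to the library's total after edgeR's TMM adjustment of that total. Transcripts at the targeted locus were not lower in the libraries labelled knockout. Mir29a had 0 counts in all 8 libraries, while Mir29b-1 had 2 to 7 counts in each labelled-knockout library and 0 in each wild-type library. Gm27019 had 227 to 327 counts in the labelled-knockout libraries and 0 in the wild types, and the long non-coding RNA gene Lncpint, next to the cluster, had 114 to 170 CPM against 0.690 to 0.936 CPM. The group names are therefore used as labels below, and "knockout" stands for the libraries labelled miR-29ab1-/-. Every direction given between the groups follows these labels and would turn if they were exchanged. Neither an exchange nor another source of the counts at this locus was tested. Across all genes, edgeR's quasi-likelihood test with Benjamini-Hochberg adjustment over the genes tested called 3 genes at an adjusted p under 0.05, Lncpint, Gm27019 and Cblif, all higher in the knockout. That is 0.0201% of the genes tested, and 228 genes, or 1.53%, had CPM values that did not overlap between the groups. With a count this low, the unadjusted p was under 0.05 for 278 genes higher and 124 genes lower in the knockout, and DESeq2 called 21 genes.

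Promoter sequences are shown for the pair of genes that followed the other members most closely over the libraries, Trpm5 and Avil, and for the gene that followed them least, Ltc4s. Each runs 5′ to 3′ on the gene's own strand from 250 bases before to 50 bases after the start in RefSeq's table for GRCm38.p6. Capitals mark a match to ATGCAA or its reverse complement TTGCAT, the first letters of the octamer ATGCAAAT, the sequence that POU factors such as Pou2f3 are known to bind.
Trpm5, chr7:143094593-143094892, minus strand: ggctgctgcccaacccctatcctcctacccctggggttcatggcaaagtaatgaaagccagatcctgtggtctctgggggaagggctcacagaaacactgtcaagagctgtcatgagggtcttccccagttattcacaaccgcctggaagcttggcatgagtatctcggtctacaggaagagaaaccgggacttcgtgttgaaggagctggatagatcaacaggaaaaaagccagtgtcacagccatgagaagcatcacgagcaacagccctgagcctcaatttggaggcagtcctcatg
Avil, chr10:127000459-127000758, plus strand: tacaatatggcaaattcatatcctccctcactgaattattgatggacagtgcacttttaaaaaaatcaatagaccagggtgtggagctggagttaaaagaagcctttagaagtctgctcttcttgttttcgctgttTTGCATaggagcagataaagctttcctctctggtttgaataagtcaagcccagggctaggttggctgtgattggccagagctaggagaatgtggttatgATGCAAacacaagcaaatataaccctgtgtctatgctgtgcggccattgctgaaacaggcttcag
Ltc4s, chr11:50238483-50238782, minus strand: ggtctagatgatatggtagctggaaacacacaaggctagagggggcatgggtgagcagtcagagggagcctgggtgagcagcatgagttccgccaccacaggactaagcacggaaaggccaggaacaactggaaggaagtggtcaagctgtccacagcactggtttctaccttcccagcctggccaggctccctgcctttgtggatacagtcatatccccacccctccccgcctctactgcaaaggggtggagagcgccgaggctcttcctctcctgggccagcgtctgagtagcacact
The table held 8 windows for 7 of the 9 members, with 2 for Dclk1 and none matched for Pou2f3 or Alox5ap. The full octamer ATGCAAAT, searched on both strands as ATGCAAAT and ATTTGCAT, was in 0 of the 8 windows and in 1.74% of all 32851 windows. The shorter ATGCAA, which lies inside the octamer, was found in 1 of the 8, that of Avil, at 114 and 15 bases before the start, and in 10.7% of all windows. These matches describe letters in a window and are not binding sites. The Avil window had 43.0% G and C, that of Trpm5 53.0% and that of Ltc4s 58.7%, beside a median of 52.7% over all windows.

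The mature miR-29 strands are shown because their shared seed, bases 2 to 8 in capitals, sets which messages they can pair with. They are the RefSeq sequences for GRCm38.p6, 5′ to 3′, with miR-29a-3p at chr6:31062673-31062694 on the minus strand.
miR-29a-3p: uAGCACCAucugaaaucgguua
miR-29b-3p: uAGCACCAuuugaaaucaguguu
miR-29c-3p: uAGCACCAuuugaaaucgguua
All 3 have the same seed, and its complement in a message reads TGGTGCT. That site was in the longest annotated 3′ untranslated region of 0 of the 9 members and of 1919 of 12386 tested genes, or 15.5%. The members' untranslated regions ran from 102 bases in Ltc4s to 5437 bases in Dclk1, and 8 of the 9 were shorter than the median of 1170 bases over those tested genes. The absence of these letters says nothing about sites elsewhere in the messages.

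None of the 9 tuft genes passed the test between the groups. All 9 had a lower mean in the knockout, with log2 fold changes from -0.74 for Sh2d6 to -0.26 for Ltc4s and a median of -0.49, beside a median of 0.011 over all genes tested, of which 48.0% were below 0. The adjusted p was 0.994 for every member by edgeR's quasi-likelihood test, and the unadjusted p lay between 0.228 for Sh2d6 and 0.650 for Ltc4s. The values of the groups overlapped for all 9 genes. For 7 of the 9, every knockout library lay inside the range of the wild types, the exceptions being Alox5ap and Ltc4s. The 9 genes share cells and libraries, so their common sign is not 9 separate observations. In RNA of whole crypts, fewer tuft cells and less tuft RNA per cell cannot be told apart.

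Pou2f3 (ENSMUSG00000032015, chr9:43123939-43210369, minus strand), the gene of the tuft lineage factor, stood at 3.61, 12.5, 14.7 and 17.2 CPM in wild-type replicates 1 to 4. In the knockouts it stood at 9.85, 11.9, 10.02 and 5.09 CPM. Wild-type replicate 1 was the lowest of the 8 libraries, with knockout replicate 4 next, and wild-type replicates 2 to 4 lay above every knockout. The means were 12.0 ± 5.91 CPM in wild type and 9.21 ± 2.90 CPM in knockout (SD, n = 4 each). The log2 fold change was -0.38 (SE 0.43, 95% interval -1.36 to 0.60).

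Gfi1b (ENSMUSG00000026815, chr2:28609450-28621982, minus strand) encodes a zinc-finger repressor known from tuft cells and from platelet and red cell precursors. It had 0.368, 2.38, 2.69 and 2.96 CPM in the wild types and 1.76, 2.67, 1.41 and 0.392 CPM in the knockouts. Wild-type replicate 1 and knockout replicate 4 were again the low libraries, and the other wild types overlapped knockout replicate 2. These are small counts, between 5 and 46 per library. Its means were 2.10 ± 1.18 and 1.56 ± 0.94 CPM, with a log2 fold change of -0.42 (SE 0.64, 95% interval -1.85 to 1.02). Of the platelet genes, Ppbp had 0 counts in every library and Pf4 had 0 to 2, while Itga2b, the only one of the 6 tested, had 27 to 52 counts and a log2 fold change of 0.49 (SE 0.29). The red cell genes had 4 of 5 tested, none called and all 4 above 0 with a median of 1.47. Their sums ran from 2.69 to 15.03 CPM in wild type and from 8.90 to 14.3 CPM in knockout replicates 1 to 3, with 55.1 CPM in knockout replicate 4, which was low in Gfi1b. Their part in the Gfi1b level was not tested.

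Trpm5 (ENSMUSG00000009246, chr7:143069153-143094642, minus strand), the calcium-gated cation channel at the end of the taste-type cascade, had 21.0, 84.3, 97.8 and 146 CPM in wild type. In the knockouts it had 47.8, 92.4, 58.4 and 29.4 CPM. Wild-type replicate 4 was the highest library and wild-type replicate 1 the lowest, so the wild types spanned both ends of the range. Mean levels were 87.4 ± 51.7 and 56.99 ± 26.4 CPM, and the log2 fold change was -0.62 (SE 0.52, 95% interval -1.79 to 0.56). The gene overlaps Tssc4 on the opposite strand over 1845 bases, and the sources used here do not say whether counting used strand, so reads of the pair may not be separated. Tssc4 had 2886 counts over the 8 libraries and Trpm5 8974.

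Rgs13 (ENSMUSG00000051079, chr1:144138654-144177372, minus strand) encodes a regulator that speeds the shut-off of G proteins. Its wild-type values were 5.94, 35.4, 23.4 and 37.5 CPM, and its knockout values were 17.9, 22.6, 22.0 and 9.40 CPM. Wild-type replicate 1 was the lowest library, and 3 wild types were above all 4 knockouts. The means were 25.6 ± 14.5 and 18.0 ± 6.08 CPM, with a log2 fold change of -0.51 (SE 0.50, 95% interval -1.63 to 0.62).

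Alox5ap (ENSMUSG00000060063, chr5:149264767-149288153, plus strand) encodes the membrane protein that presents arachidonic acid to 5-lipoxygenase for leukotriene synthesis. It had 2.82, 8.03, 11.6 and 15.1 CPM in wild type and 5.36, 9.95, 6.78 and 1.88 CPM in knockout. Here knockout replicate 4 was the lowest library and lay below the wild-type range. The means were 9.39 ± 5.24 and 5.99 ± 3.35 CPM, and the log2 fold change was -0.64 (SE 0.55, 95% interval -1.89 to 0.61).

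Ltc4s (ENSMUSG00000020377, chr11:50236461-50238616, minus strand), whose enzyme joins glutathione to leukotriene A4, had the lowest counts beside Gfi1b, from 12 to 78 per library. It stood at 1.35, 2.32, 2.87 and 4.78 CPM in wild type and at 1.91, 5.07, 1.47 and 0.940 CPM in knockout. Its highest and its lowest library were both knockouts, replicates 2 and 4. The means were 2.83 ± 1.44 and 2.35 ± 1.86 CPM, with a log2 fold change of -0.26 (SE 0.55, 95% interval -1.50 to 0.98). Without wild-type replicate 4 the sign turned, to 0.11. Ltc4s overlaps the long non-coding RNA gene Gm26542 on the opposite strand, which had 126 counts over the libraries beside 320 for Ltc4s.

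Mast cells also use Alox5ap and Ltc4s, so their markers were read beside these genes. The mast cell genes Cpa3, Fcer1a and Ms4a2 had 0 to 7 counts in 7 libraries and 21 to 34 in knockout replicate 3. Mcpt1, a mast cell protease, had 768 counts in knockout replicate 3 and 11 to 135 in the others. The same library had 6.78 CPM of Alox5ap and 1.47 CPM of Ltc4s, inside the range of the other libraries for both. The summed level of all 11 mast cell genes listed, of which 4 were tested, ran from 60.8 to 83.6 CPM in wild type and from 49.3 to 136 CPM in knockout. Kit gave most of that sum in 7 libraries, so there the sum describes Kit more than the mast cell genes with few counts. In knockout replicate 3, the highest, Kit gave 67.0 CPM beside 45.3 CPM of Mcpt1. The part of mast cells in the levels of the leukotriene genes was not tested.

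Dclk1 (ENSMUSG00000027797, chr3:55242364-55539068, plus strand), a microtubule-associated kinase widely used to stain tuft cells, had 18.2, 85.1, 69.999 and 106 CPM in wild type. The knockouts had 47.3, 72.5, 61.6 and 23.7 CPM, between the lowest and the highest wild type. Its means were 69.9 ± 37.6 and 51.3 ± 21.1 CPM, and its log2 fold change was -0.45 (SE 0.50, 95% interval -1.56 to 0.67).

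Avil (ENSMUSG00000025432, chr10:127000709-127020994, plus strand) encodes advillin, an actin-binding protein of the villin family found in the tuft cell's apical bundle. It had 16.3, 51.3, 65.7 and 76.8 CPM in wild type and 30.1, 56.4, 43.0 and 19.8 CPM in knockout. The order of the libraries was that of Trpm5 at both ends. The means were 52.5 ± 26.3 and 37.3 ± 15.9 CPM, with a log2 fold change of -0.49 (SE 0.46, 95% interval -1.52 to 0.54). Avil overlaps Tsfm on the opposite strand over 9423 bases, with 3304 counts for Tsfm and 5607 for Avil, so the strand limit given for Trpm5 applies here too.

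Sh2d6 (ENSMUSG00000052631, chr6:72513641-72521707, minus strand), named for its SH2 domain, a module that binds phosphotyrosine, had the widest wild-type range. It had 11.5, 59.4, 76.3 and 112 CPM in wild type, a 9.74-fold span, and 26.0, 63.6, 39.3 and 26.7 CPM in knockout. The means were 64.8 ± 41.8 and 38.9 ± 17.6 CPM. Its log2 fold change of -0.74 was the lowest of the 9 (SE 0.57, 95% interval -2.02 to 0.55).

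**Figure D1:**
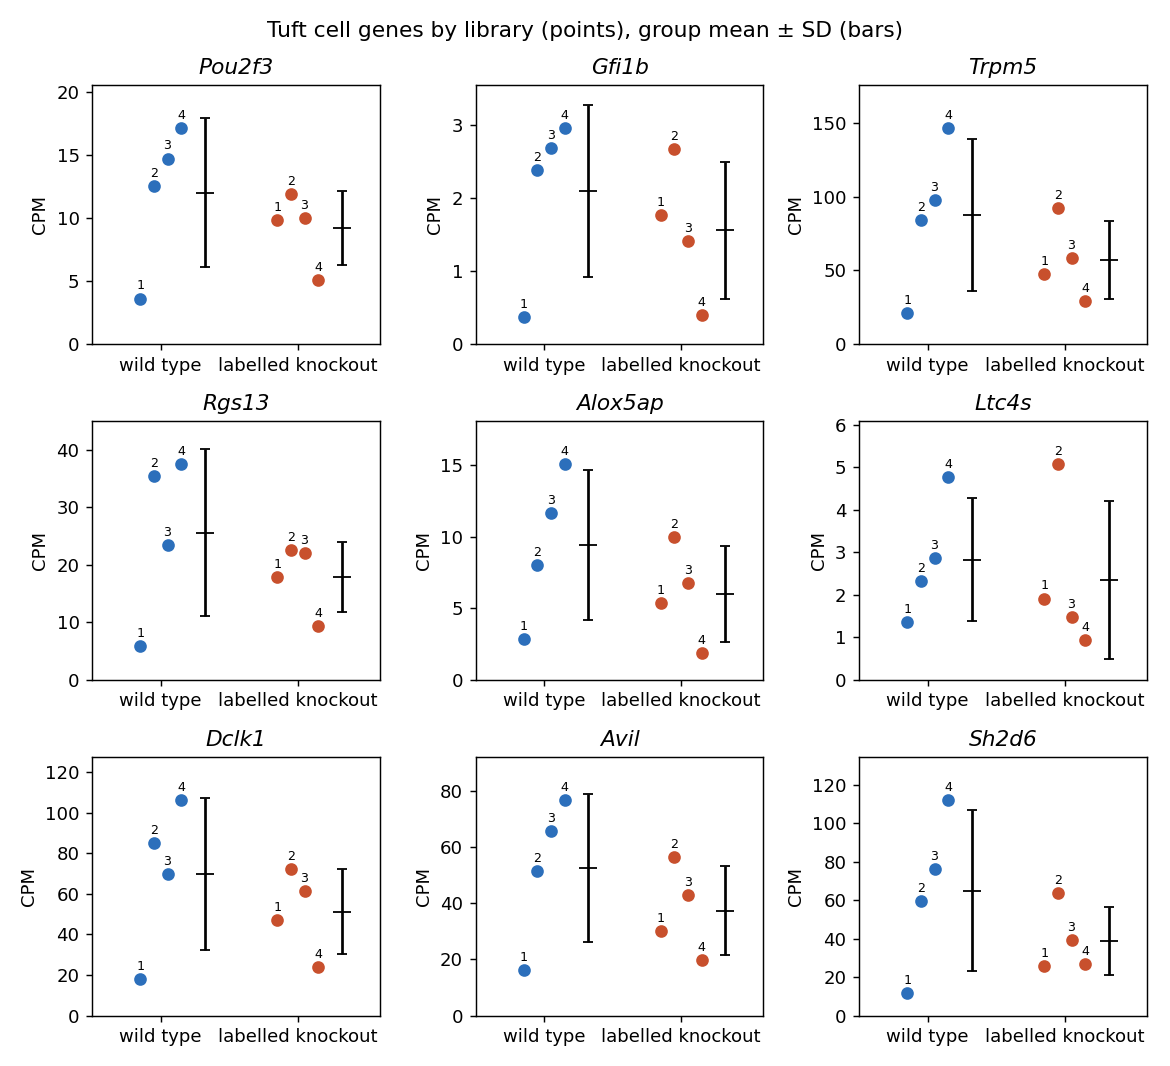
CPM of each of the 9 tuft genes in the 4 wild-type (blue) and the 4 labelled-knockout (orange) libraries on linear axes from 0, with each numbered point a replicate and bars for the group mean ± SD. The groups overlap for all 9 genes, and wild-type replicate 1 is the lowest library for 7 of them.

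**Figure D2:**
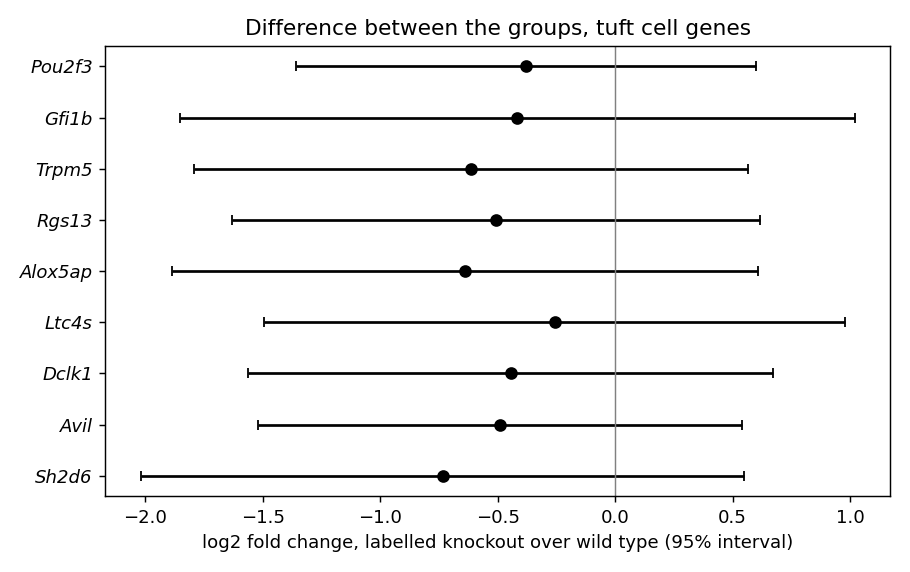
Log2 fold change of knockout against wild type for each of the 9 genes from the fit across all genes, with 95% confidence intervals and a vertical line at 0. The 9 estimates lie between -0.74 and -0.26 and every interval holds 0.

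Levels can be compared between genes per length only, in FPKM, fragments scaled by gene length and library size. Sh2d6 was the highest in 8 of 8 libraries, with a mean of 30.4 FPKM and a range of 6.69 to 65.9. Avil at 13.1, Rgs13 at 13.0 and Trpm5 at 11.2 FPKM followed, and their order was not fixed: Avil was above Rgs13 in 4 of 8 libraries and Rgs13 above Trpm5 in 5. Trpm5 was above Alox5ap, at 5.37 FPKM, in 8 of 8. Alox5ap was above Dclk1, at 3.93 FPKM, in 7, and Dclk1 above Pou2f3, at 3.41 FPKM, in 5. Pou2f3 was above Ltc4s, at 2.53 FPKM, in 6 of 8 libraries. Gfi1b was the lowest of the 9 in all 8, at 0.991 FPKM. Dclk1, the usual marker protein, was sixth by mean FPKM over the 8 libraries and held that rank in 4 of them. Its FPKM was scaled by a gene length of 15296 bases, the longest of the 9, with Trpm5 next at 6398. The rank of Dclk1 depends on that length.

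The spread between libraries of a group was large for all 9 genes. The coefficient of variation (SD over mean) of CPM ran from 49.2% for Pou2f3 to 64.5% for Sh2d6 in wild type and from 31.5% for Pou2f3 to 79.1% for Ltc4s in knockout. Counting alone would give between 2.67% for Trpm5 and 17.2% for Gfi1b in wild type, and between 3.48% and 21.0% for the same genes in knockout. The measured spread was thus 2.87 to 22.1 times that of counting. On the log2 scale the SD within groups was 0.81 for Pou2f3, 0.95 for Dclk1 and 1.10 for Sh2d6, where the median over tested genes within a factor of 2 in mean CPM was 0.29, 0.21 and 0.21. Among such genes of like level the members stood between the 87.8th percentile, for Ltc4s, and the 99.0th, for Sh2d6. The SD of log2 CPM was larger in wild type for 8 of the 9, Ltc4s being the exception.

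**Figure D3:**
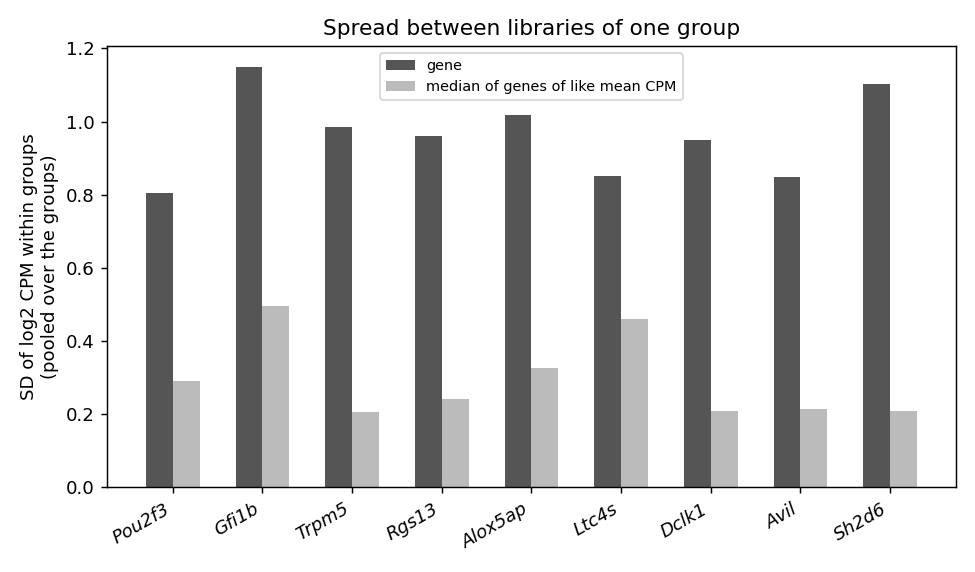
Bars from 0 of the within-group SD of log2 CPM, pooled over the groups, for each tuft gene (dark) beside the median SD of tested genes within a factor of 2 of its mean CPM (light). All 9 tuft genes lie above the median of genes of like level.

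The 9 genes had similar profiles from library to library. Summed over the 9, the level was 81.1, 341, 365 and 519 CPM in the wild types and 188, 337, 244 and 117 CPM in the knockouts. The highest library held 6.40 times the lowest within wild type and 2.87 times within knockout. Group means of this sum were 327 ± 182 and 222 ± 92.7 CPM. The mean of the 9 genes' log2 CPM, each centred on its own mean over the 8 libraries, was -1.41, 0.48, 0.62 and 1.07 in wild-type replicates 1 to 4. In knockout replicates 1 to 4 it was -0.21, 0.59, -0.0085 and -1.13. Wild-type replicate 1 was among the lowest 2 libraries for 9 of the 9 genes and knockout replicate 4 for 8, while wild-type replicate 4 was the highest for 8.

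Subtracting the mean of the other 8 members left little of most genes' spread. The SD over the 8 libraries went from 0.94 to 0.12 for Trpm5, from 0.81 to 0.16 for Avil and from 0.89 to 0.18 for Dclk1, all on the log2 scale. It went from 0.76 to 0.22 for Pou2f3, from 1.00 to 0.30 for Alox5ap, from 0.90 to 0.31 for Rgs13, from 1.08 to 0.34 for Gfi1b and from 1.05 to 0.39 for Sh2d6. Ltc4s kept the most, with 0.51 of 0.82, and it was also among the genes with the fewest counts. After this subtraction the difference between knockout and wild type lay between -0.27 for Alox5ap and 0.16 for Pou2f3 on the log2 scale. Of all pairs, Dclk1 and Rgs13 were the closest, with a root mean square difference of 0.13 between their centred log2 values, and Rgs13 and Ltc4s the farthest, with 0.62.

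**Figure D4:**
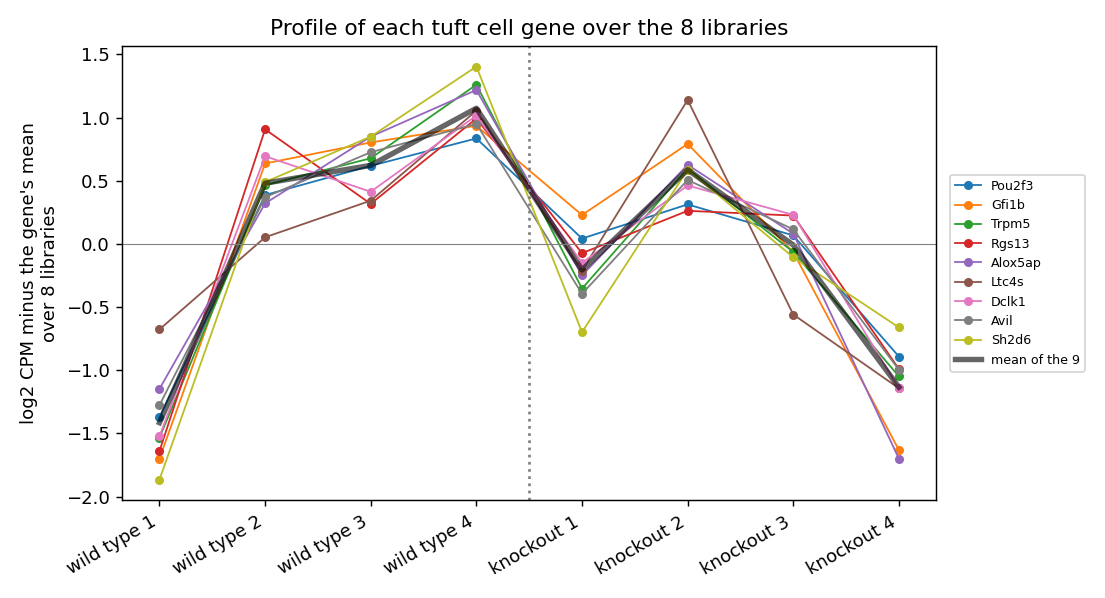
Centred log2 CPM of the 9 tuft genes in each library, with a thin coloured line joining the points of a gene and a thick line for the mean of the 9. The replicates have no order, and the mean is lowest at -1.41 in wild-type replicate 1 and highest at 1.07 in wild-type replicate 4.

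The group difference depended on which libraries were in it. Without wild-type replicate 1 the median log2 fold change of the 9 genes was -0.79, and without knockout replicate 2 it was -0.81. Without wild-type replicate 4 it was -0.25, and without knockout replicate 4 it was -0.28. The members called stayed at 0 in each of these fits.

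Markers of other cells differed in the same libraries. Wild-type replicate 1 held 67.0 CPM of stromal genes, of which Vim was the most abundant, against 9.15 to 21.8 CPM in the other wild types, and 106 CPM of T cell genes against 46.3 to 60.5. Its enterocyte genes summed to 10383 CPM against 17514 to 19306. Knockout replicate 4 held 98.8 CPM of T cell genes against 43.4 to 48.1 in the other knockouts, 46252 CPM of enterocyte genes against 8359 to 20226, and 421 CPM of cell cycle genes against 684 to 1052. Its Paneth cell genes summed to 14660 CPM against 31497 to 50602. Both libraries lowest in tuft genes were thus the highest 2 in T cell genes, while they stood at opposite ends of their groups in enterocyte genes. Other libraries stood apart without low tuft genes. Knockout replicate 3 had the lowest enterocyte sum of the 8 libraries, 8359 CPM, and the highest enteroendocrine sum, 590 CPM. Its mean centred log2 CPM of the tuft genes was -0.0085. The enteric neuron gene Elavl4 had 2 to 12 counts in a library. What part these other cells had in the tuft gene levels was not tested.

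**Figure D5:**
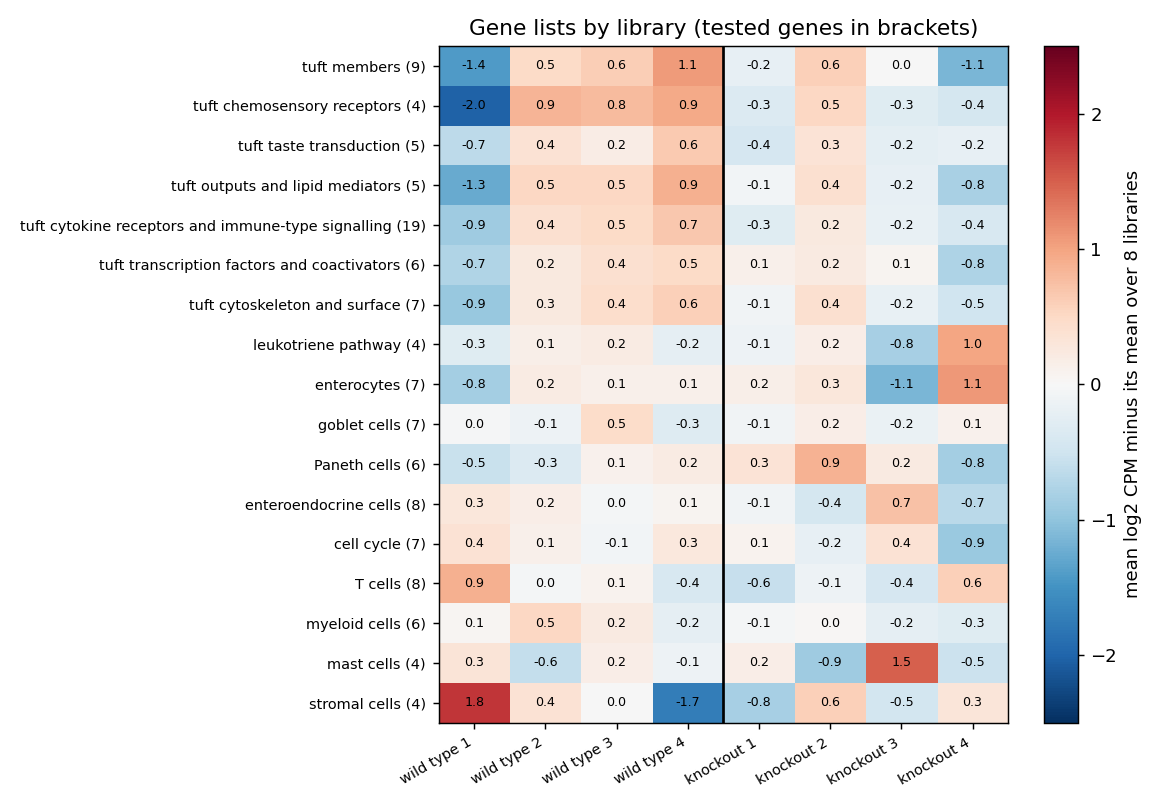
Mean centred log2 CPM in each library (columns) for the tuft genes, the other tuft lists and marker lists of other cell types (rows, with the number of tested genes), red above and blue below the mean over the 8 libraries. Wild-type replicate 1 is low in the tuft lists and high in stromal and T cell genes. Knockout replicate 4 is high and knockout replicate 3 low in enterocyte genes.

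Another 61 genes of tuft cells and of the leukotriene pathway were listed by role, of which 60 had a row in the table and 50 were tested. None was called by edgeR's quasi-likelihood test, 1 had an unadjusted p under 0.05, and 0 had groups that did not overlap. DESeq2 called 0 as well. Of the 50, 38 had a log2 fold change below 0 and 12 above, with a median of -0.42. Their adjusted p lay between 0.994 and 0.998. Over all 14897 genes tested, edgeR's quasi-likelihood test called 0.0201%, and 1.53% had groups that did not overlap. By the same test the unadjusted p was under 0.05 for 278 of all genes higher and 124 lower in the knockout. Of all genes tested 48.0% were below 0, with a median of 0.011.

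Among chemosensory receptors, 3 of 4 tested were below 0. Ffar3, a receptor for short-chain fatty acids, had 1.10, 4.45, 6.08 and 8.34 CPM in wild type and 3.16, 4.16, 3.18 and 1.72 CPM in knockout, a log2 fold change of -0.70 (SE 0.52). Vmn2r26, a receptor of the vomeronasal family, had -1.13 (SE 0.90), with 0 counts in wild-type replicate 1, but -0.024 by limma's voom fit. In the taste transduction list 4 of 5 were below 0, and Plcg2 and Plcb2, phospholipases that release the calcium signal, had -0.48 (SE 0.26) and -0.59 (SE 0.41). Gnb3 and Gng13, G protein subunits of taste cells, were too low to test, with 0 to 2 and 4 to 13 counts a library.

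Of the outputs, 5 of 5 tested were below 0, with -0.40 (SE 0.27) for Pla2g4a, which frees arachidonic acid, and -0.48 (SE 0.44) for Ptgs1, the first enzyme of prostaglandin synthesis. Il25, the tuft cytokine, had 0 to 10 counts a library and was not tested. Ptgs2 had 8, 9 and 22 counts in wild-type replicates 2, 3 and 4 and 8 and 4 in knockout replicates 2 and 3, with 0 in the libraries that remained. In the list of cytokine receptors and immune-type signalling 16 of 19 were below 0, with a median of -0.53. Rac2, a small GTPase of blood cells that tuft cells also carry, had the lowest unadjusted p, with 19.97, 30.7, 32.8 and 26.5 CPM in wild type and 15.2, 21.0, 14.8 and 24.7 CPM in knockout. Its log2 fold change was -0.54 (SE 0.21, adjusted p = 0.994 by edgeR's quasi-likelihood test). Il17rb, the receptor chain for interleukin 25, had -0.51 (SE 0.28).

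Transcription factors and coactivators had 4 of 6 below 0 and a median of -0.19, with -0.67 (SE 0.55) for the homeobox gene Hmx2 and -0.45 (SE 0.51) for the ETS factor gene Spib. Of the cytoskeleton and surface genes 6 of 7 were below 0, with -0.26 (SE 0.22) for the keratin gene Krt18 and -0.51 (SE 0.44) for Kctd12. A list of further leukotriene genes, made up of conversion enzymes and receptors, had 4 tested members, all above 0, with a median of 0.28. It leaves out Alox5, the 5-lipoxygenase gene, which was listed with the outputs and had a log2 fold change of -0.59 (SE 0.61). Of the 4, Ggt1, which trims glutathione conjugates, had 0.33 (SE 0.49) and the leukotriene receptor gene Cysltr2 had 0.29 (SE 0.44). Both signs turned without knockout replicate 4, to -0.33 and -0.043. Ggt1 had 1139 CPM in that library and 183 to 435 in the other knockouts, the library where enterocyte genes were also the highest.

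The genes nearest to the tuft pattern were ranked over 12526 protein-coding genes tested, by the root mean square difference between a gene's centred log2 CPM and the mean of the 9 members over the 8 libraries. The 8 nearest were Nebl at 0.080, Pik3r5 at 0.089, Dgki at 0.12, Adcy5 at 0.13, Kctd12 at 0.13, Spib at 0.15, Pygl at 0.16 and Lrmp at 0.17, on the log2 scale. The median over all genes ranked was 0.862. Of the 8, 5 were in the tuft lists, namely Nebl, Pik3r5, Kctd12, Spib and Lrmp, and of the nearest 50, 19 were. Of the 12526 genes ranked, 50 were in the tuft and leukotriene lists. Of these 50, 25 were among the nearest 126 genes, or 1%, and the rest lay farther away. Sucnr1 ranked 4120, Vmn2r26 10169 and Cysltr2 11789, so not all listed genes had the pattern. Pik3r5, a regulatory subunit of phosphoinositide 3-kinase, had 12.4, 45.2, 51.3 and 66.9 CPM in wild type and 28.8, 42.1, 29.9 and 15.4 CPM in knockout, the library order of Trpm5 at both ends. Dgki, a diacylglycerol kinase gene, Adcy5, an adenylyl cyclase gene, and Pygl, the liver glycogen phosphorylase gene, were outside the lists. This likeness is a description over 8 libraries, and each library's depth and cell make-up are common to all genes in it.

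The libraries at the ends of the range were counted for the members, the other genes and the whole table. Wild-type replicate 1 was the lowest library for 7 of the 9 members, for 30 of the 50 other genes, or 60%, and for 11.8% of all genes tested. Wild-type replicate 4 was the highest for 8 of 9, for 52% of the 50 and for 9.04% of all. Wild-type replicate 1 and knockout replicate 4 were together the lowest pair for 8 of 9, for 50% of the 50 and for 3.99% of all. These shares are descriptions and carry no test.

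The authors' deposited table of the same comparison gave log2 fold changes from -0.74 for Sh2d6 to -0.26 for Ltc4s for the members. Its adjusted p was 1.00 for each of the 9.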

How the data were processed

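RNA of small-intestinal crypts was harvested by TRIzol, and the library kit marks strand, per the labels' protocols. The submitters' processing notes name the tools HISAT2 and DESeq2 with no version. The sources used here do not state the build, annotation, read counter or use of strand. Gene positions in the deposited table equal those of GENCODE M21 (GRCm38) for 99.5% of 55144 shared identifiers and for all 9 members.

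The authors deposited 1 table with raw counts per gene and FPKM values for each of the 8 libraries. The same deposited table holds the authors' group means of normalised signal, log2 fold changes and p-values, raw and adjusted. A smaller deposited table of FPKM for a subset of genes was not used. Every row names a gene.

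The deposited counts were fitted in R 4.3.3 with edgeR 4.0.16 (TMM scaling, low-count filter filterByExpr, robust quasi-likelihood test, design by group). P-values were Benjamini-Hochberg adjusted over the 14897 genes tested, at a threshold of 0.05. CPM and log2 CPM both use TMM-scaled totals, and log2 CPM also uses a prior count of 2. FPKM served only for comparing levels between genes. Intervals are at 95%. The fit was tested on simulated counts. Alternatives were RLE scaling, DESeq2 1.42.0, limma 3.58.1 (voom), 2 other filters, protein-coding genes alone, a replicate block and leaving out each library.

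The members and gene lists were chosen with earlier results of these data known. Named genes are all members, the 2 tested genes of lowest unadjusted p of each further tuft or leukotriene list, the highest gene of each list for other cells, the 8 genes most like the members, and the locus genes. Cblif, Alox5, Tssc4, Tsfm, Gm26542 and genes given only as counts were named after their values were seen.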

Additional observations from a re-analysis of the deposited data

Results flagged for a closer look

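In 6 of 86 groups of 4 libraries that were checked, 1 library lay far from the other 3, and chance alone marks about 1 in 20 groups. None of the 9 tuft genes was among them. Of the other tuft and leukotriene genes, Vmn2r26 was at 0 CPM in wild-type replicate 1, beside 3.23 to 3.68 CPM in the other wild types. Ggt1 was at 245 CPM in the same library, beside 472 to 506. That library was also apart for the stromal gene Vim, at 33.0 CPM beside 7.74 to 11.7, and for the enteroendocrine gene Chgb, at 262 CPM beside 153 to 165. Knockout replicate 4 was apart for Cd8a, a T cell gene, at 35.2 CPM beside 15.7 to 19.0, and for the haemoglobin gene Hbb-bs, at 24.9 CPM beside 3.38 to 6.18. These are the libraries with the lowest sums of tuft genes in their groups, 81.1 and 117 CPM. Flags on genes of the same library are not separate observations, and a link to the tuft genes was not tested.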

How the results depend on the processing

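No tuft member and no other tuft gene was called under any of the 15 alternatives, and 132 of 133 alternative values for members kept their sign, with adjusted p from 0.713 to 1. Gfi1b and Ltc4s gave no value with at least 5 CPM required in 4 libraries. The members' median log2 fold change lay between -0.50 and -0.36 under other tools, scalings and filters and between -0.81 and -0.25 with 1 library left out; for the other tuft genes the latter range was -0.67 to -0.25. Over all genes DESeq2 called 21, no filter gave 5 and protein-coding genes alone 0, beside 3, with 2 to 3 when 1 library was left out. With the replicate number as a block, 2 genes were called and the members' median was -0.37. Same-numbered libraries correlated at 0.0745, 0.0345, -0.388 and -0.0871 and none best with its own number. These values showed no pairing by number but cannot exclude it, because large differences between libraries could hide a small shared effect. The labels state no pairing. With 1 library left out, signs turned for Ltc4s (-0.96 to 0.11, positive without wild-type replicate 4), for Ggt1 (-0.33 to 0.62), Cysltr2 (-0.043 to 0.51) and Anpep, an enterocyte gene (-0.25 to 0.79), all negative without knockout replicate 4, and for Kit (-0.038 to 0.24), negative without knockout replicate 2. They turned for Cd8a (-0.50 to 0.043) and Vim (-0.79 to 0.064) without wild-type replicate 1, for Chgb (-0.53 to 0.17) without wild-type replicate 1 (0.16) or knockout replicate 2 (0.14) or 4, and for Fcgbp, a goblet cell gene (-0.026 to 0.25), without wild-type replicate 2 or 4 (-0.025). The cause was not tested. Counts were lowest for Gfi1b (5 to 46 a library) and Ltc4s (12 to 78), which limits their precision.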
